A study of Mus musculus with 6 samples.

Results

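Prostaglandins are short-lived lipid signals that cells make from arachidonic acid. Cyclooxygenases (Ptgs1 and Ptgs2) turn it into prostaglandin H2, and terminal synthases such as Hpgds turn that into final products. Hpgd inactivates some of these products, among them prostaglandin E2. Prostaglandin E2 acts on the receptors EP1 to EP4 (Ptger1 to Ptger4). In T cells EP2 and EP4 raise cyclic AMP through the G protein Gs, and EP3 mainly lowers it through Gi. Prostaglandin D2 acts on Ptgdr and on Ptgdr2 (CRTH2), a surface marker of type 2 helper T (Th2) cells.

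The 10 genes described here were chosen by name as enzymes of prostaglandin synthesis and breakdown, receptors for prostaglandins, and Alox5ap, the FLAP protein of the neighbouring leukotriene pathway. All 10 were found among the 24453 gene symbols of the deposited table, and each averaged 1 RPKM or more over the 6 libraries, the condition that 13621 genes met to be tested. RPKM here is reads per kilobase of transcript and per 10000000 counted reads. RNA was sequenced from regulatory T (Treg) cells, a class of lymphocytes that keeps other immune cells in check, sorted as CD4+Foxp3+ from healthy female C57BL/6 mice. The miR-27 Tg group (3 libraries) is described in the series text as overexpressing miR-27a specifically in Treg cells. The WT group (3 libraries) carries the genotype label WT Tg, a wording that the labels do not explain. The series title names Foxp3cre het mice, without saying whether WT mice carried the Cre too. Foxp3 lies on the X chromosome, so in a female with 1 Cre copy only part of the Treg cells use the Cre-bearing copy. Neither the age of the mice nor whether each library is from a mouse of its own is stated, so p-values measure the spread between libraries, which may be technical.

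Low values showed 38100000, 34400000 and 34400000 counted reads in miR-27 Tg replicates 1 to 3 and 42100000, 39300000 and 37700000 in WT replicates 1 to 3. The hairpin Mir27a had 8919, 7448 and 7898 RPKM in miR-27 Tg and 24.9, 38.4 and 24.7 in WT, so each library matched its label. Foxp3 had 836 ± 104 RPKM in miR-27 Tg and 764 ± 89.9 in WT (SD, n = 3 each), and Cd4 had 2207 ± 88.0 and 1946 ± 85.4 in the same order. Of 7 Treg markers none passed by limma, and the inhibitory receptor Ctla4 had 2335 ± 234 RPKM in miR-27 Tg and 3436 ± 324 in WT (adjusted p = 0.0868). Markers of myeloid cells, which the sort is meant to leave out, summed to 568, 1736 and 1118 RPKM in miR-27 Tg replicates 1 to 3 and to 502, 463 and 825 in WT replicates 1 to 3 (16 markers). Of the 14 myeloid markers that were tested Itgam, an integrin subunit, was higher (16.4 ± 0.583 RPKM in miR-27 Tg, 4.41 ± 0.487 in WT, adjusted p = 0.0118) and none was lower by limma. At an unadjusted p under 0.05, 8 were higher and 1 was lower, against 4.59% and 8.43% of all genes tested. The lower 1 was Ccr2, with 64.1 ± 23.6 RPKM in miR-27 Tg and 102 ± 23.1 in WT, without overlap. Lyz2, a lysozyme, had 367 ± 156 RPKM in miR-27 Tg and 167 ± 97.7 in WT. Markers of B cells summed to 110 to 164 RPKM in miR-27 Tg and 144 to 169 in WT, and none of 8 tested passed. Markers of stroma and endothelium summed to 582 to 686 RPKM in miR-27 Tg and 437 to 563 in WT, nearly all from Pecam1, which T cells also express, and none of 3 tested passed. The endothelial gene Cdh5 had 2.12, 15.0 and 8.19 RPKM in miR-27 Tg and 0.479, 2.82 and 7.15 in WT (adjusted p = 0.611 by limma). Kdr, also endothelial, had 1.65, 16.4 and 5.41 RPKM in miR-27 Tg and 0.307, 2.39 and 4.02 in WT (adjusted p = 0.551 by limma).

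MicroRNAs lower messenger RNAs mainly by pairing their seed, bases 2 to 8, with the 3′ untranslated region (3′ UTR). The transgene product and its close relative are shown with the seed in capitals, because the match to this seed was searched in the members. Both sequences are from RefSeq (GRCm38.p6), at chr8:84208727-84208747 for miR-27a-3p and chr13:63300760-63300780 for miR-27b-3p, plus strand, and their seeds are identical.
miR-27a-3p: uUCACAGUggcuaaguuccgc
miR-27b-3p: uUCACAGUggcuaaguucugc

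The match to that seed (ACTGTGA on the transcript strand) was found in 3 of the 10 members, in the 3′ UTR of each gene's longest annotated coding transcript (GENCODE M21, GRCm38), and in 17.2% of the 11825 tested genes with an annotated 3′ UTR. The 3 members were Hpgds, Ptger2 and Ptger4, with 1 match each, and they are shown with the match in capitals. The match begins at base 1164 of 2631 in the Hpgds 3′ UTR, at base 923 of 1825 in Ptger2 and at base 722 of 1233 in Ptger4. In Hpgds the match is followed by an A, the 8-base form that 6.15% of the searched genes hold.
Hpgds: aatataaaagaACTGTGAaaattcaatag
Ptger2: gaaatcatgtaACTGTGAgtcatatctta
Ptger4: ttatccagaaaACTGTGAttttaggatta
The other 7 members, Ptgs1, Ptgs2, Alox5ap, Hpgd, Ptger1, Ptger3 and Ptgdr2, held no match in 3′ UTRs of 419 to 3220 bases, against a median of 1140 over the searched genes. A match is a stretch of letters and not a shown binding site.

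Of the 10 members 1 fell, Hpgds, and none rose in miR-27 Tg at an adjusted p under 0.05 by limma, a moderated linear model (Benjamini-Hochberg, all 13621 genes). Among all genes tested 1.03% passed in either direction, 0.653% lower and 0.374% higher. At an unadjusted p under 0.05, 3 members were lower (Hpgds, Ptger4 and Ptger2) and 1 was higher (Ptger3), against 8.43% and 4.59% of all genes tested (13.0% in either direction). The groups did not overlap for the same 4 members, 3 lower and 1 higher, against 11.6% lower and 6.84% higher of all genes (18.5% in either direction). The log2 fold change was below 0 in 4 of the 10 members, against 52.9% of all genes tested. The 3 members lower at an unadjusted p under 0.05 are the 3 that hold a miR-27 seed match, and Ptgdr2, also below 0 at -0.0083, holds none. Of these only Hpgds passed after adjustment, and whether miR-27 acts on these transcripts was not tested. Over all searched genes the median log2 fold change was -0.064 with a match, -0.087 with the 8-base form and 0.0011 without a match.

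**Figure D1:**
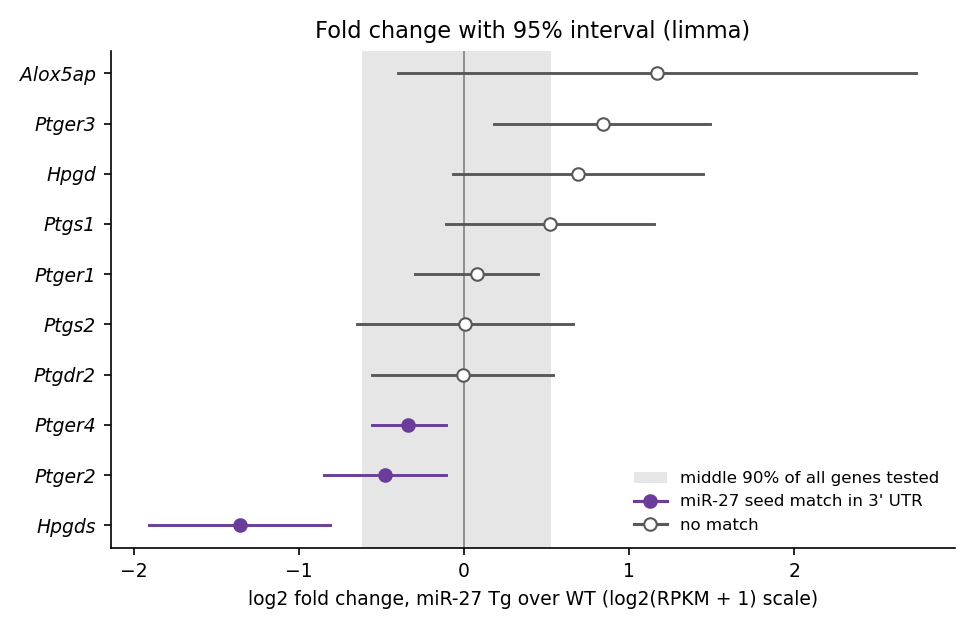
Log2 fold change of each member, miR-27 Tg over WT, with its 95% interval from limma (n = 3 libraries a group); filled violet points hold a miR-27 seed match in the 3′ UTR and the grey band spans the middle 90% of all genes tested, -0.62 to 0.53. Hpgds lies below the band at -1.36, and Alox5ap, Ptger3 and Hpgd lie above it with intervals that reach into it.

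Levels of the members, compared per kilobase, spanned more than 2 orders of magnitude. The cyclooxygenases stood at the bottom. Ptger1 had the highest value, with a mean over the 6 libraries of 385 RPKM, but its reads could not be assigned to it, as described with the receptors. Ptger4 followed with 251, Ptger2 with 88.7, Alox5ap with 35.9, Hpgds with 16.2 and Ptger3 with 7.33 RPKM. Ptgdr2, Hpgd, Ptgs1 and Ptgs2 had 3.03, 2.92, 1.97 and 1.62 RPKM, from 9 to 41 reads a library. Ptger4 was above Ptger2 in all 6 libraries with no overlap of their ranges. The ranges of every other pair of neighbours in this order overlapped.

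**Figure D2:**
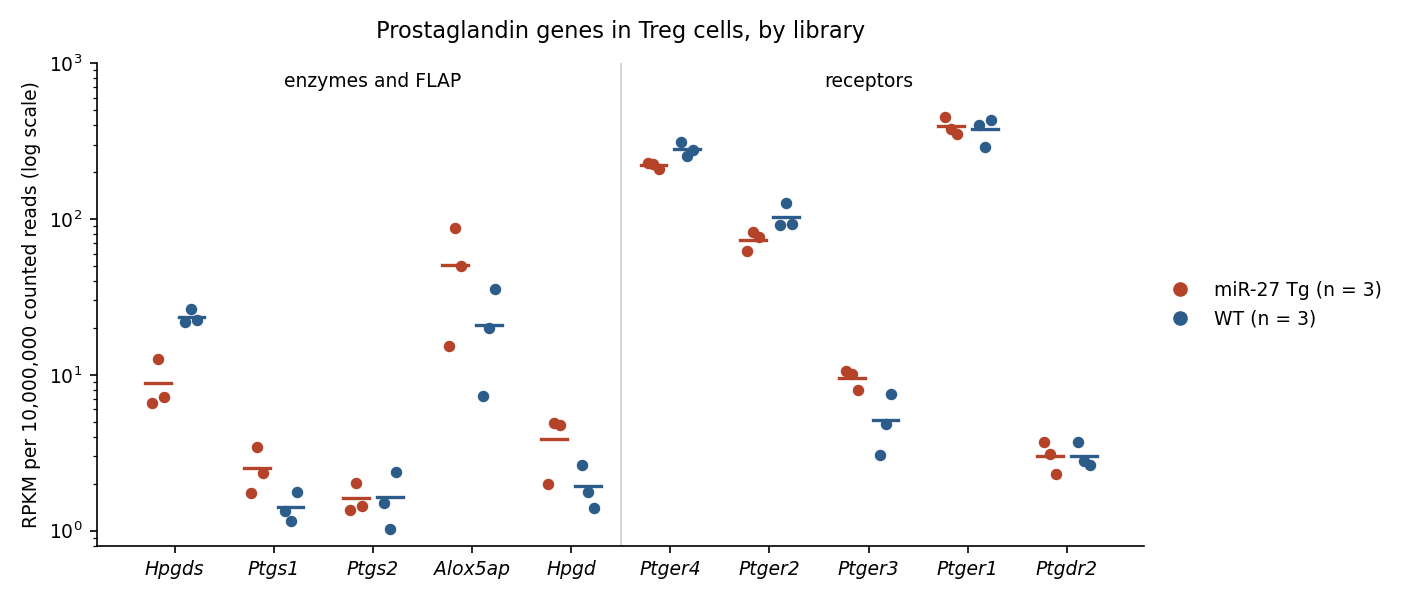
RPKM per 10000000 counted reads (log scale) of the 10 members in each library, miR-27 Tg to the left of WT; points are libraries and bars are means of 3. The groups are apart for Hpgds, Ptger4, Ptger2 and Ptger3 and overlap for the other 6 members.

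The enzymes were led by Hpgds, haematopoietic prostaglandin D synthase, which makes prostaglandin D2 and is known from mast cells, megakaryocytes and Th2 cells. Hpgds (NM_019455, mm10 chromosome 6, 65117293 to 65144730, minus strand, 6 exons) had 6.62, 12.6 and 7.24 RPKM in miR-27 Tg replicates 1 to 3 and 21.7, 26.4 and 22.4 in WT replicates 1 to 3. These values come from 83, 143 and 82 reads in miR-27 Tg and 300, 342 and 278 in WT. Every miR-27 Tg library lay below every WT library, and no other annotated gene shares its exonic bases.

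Hpgds averaged 8.83 ± 3.30 RPKM in miR-27 Tg and 23.5 ± 2.55 in WT (SD, n = 3 each), a log2 fold change of -1.36 (SE 0.24, 95% interval -1.91 to -0.81, adjusted p = 0.046 by limma). The call was close to the threshold and held in 1 of the 6 fits that left out 1 library. Among all genes tested 140 passed with all libraries and 5 to 65 in those fits. The adjusted p by limma was 0.118, 0.126 and 0.146 without WT replicate 1, 2 or 3, 0.104 and 0.157 without miR-27 Tg replicate 1 or 3, and 0.0368 without miR-27 Tg replicate 2, while the log2 fold change stayed between -1.62 and -1.21. In bulk RNA, fewer cells that carry a transcript and less of it per cell cannot be told apart. 

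Other cell types known for Hpgds were followed through their markers. Markers of mast cells, basophils and eosinophils were low, with sums of 16.2 to 23.6 RPKM in miR-27 Tg and 16 to 19 in WT over 14 genes, and none of the 7 tested passed. Kit and Cpa3, the highest of them, had 5.77 ± 1.79 and 3.04 ± 0.548 RPKM in miR-27 Tg and 5.98 ± 2.31 and 3.57 ± 0.286 in WT. The mast cell proteases Mcpt4 and Tpsb2 had 6.95 and 2.67 RPKM, from 26 and 11 reads, in miR-27 Tg replicate 1, at most 1 read in miR-27 Tg replicates 2 and 3 and none in WT. The eosinophil granule gene Prg2 had 0.233 ± 0.404 RPKM in miR-27 Tg and 2.05 ± 2.2 in WT, where replicate 1 had 16 reads. The basophil and mast cell markers Fcer1a and Ms4a2 had at most 0.515 RPKM in any library, and the basophil protease Mcpt8 was listed at 0 in all 6. None of 4 tested platelet markers passed: Itga2b and Gp1ba had 7.26 ± 1.28 and 11.7 ± 1.70 RPKM in miR-27 Tg and 7.68 ± 1.67 and 12.4 ± 2.85 in WT, and Clec1b had 2.49 ± 1.25 in miR-27 Tg and 1.01 ± 0.683 in WT (adjusted p = 0.454 by limma). The 8 Th2 markers summed to 341, 377 and 339 RPKM in miR-27 Tg replicates 1 to 3 and 429, 472 and 447 in WT replicates 1 to 3. Of the 6 of them that were tested, Ccr8, a chemokine receptor that Treg cells also use, was lower (41.9 ± 6.90 RPKM in miR-27 Tg, 100 ± 17.6 in WT, log2 fold change -1.23, adjusted p = 0.0257 by limma), and none was higher. At an unadjusted p under 0.05, 2 of them were lower, Ccr8 and Il1rl1, against 8.43% of all genes tested. Il1rl1, the receptor for interleukin-33 that Treg cells also use, had 10.4, 10.2 and 10.4 RPKM in miR-27 Tg and 12.5, 20.8 and 14.0 in WT, without overlap (log2 fold change -0.53, adjusted p = 0.316 by limma). Ccr4, another chemokine receptor, had 110 ± 24.3 RPKM in miR-27 Tg and 129 ± 23.5 in WT. Gata3, the Th2 master regulator that Treg cells also express, had 173 ± 30.9 RPKM in miR-27 Tg and 187 ± 28.8 in WT, and Il4 had 4.29 ± 2.77 and 4.04 ± 1.69 in the same order. Il5 and Il13 were under 1 RPKM on average in both groups. The part of Th2 cells, mast cells and eosinophils in the Hpgds difference was not tested.

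The 3 genes whose levels were most like those of Hpgds over the 6 libraries were Ryk, a Wnt co-receptor (Pearson r = 0.996), Ankrd6 (0.995) and Mms22l, a DNA repair factor (0.995). Ryk had 2.27, 5.21 and 2.33 RPKM in miR-27 Tg replicates 1 to 3 and 10.7, 11.7 and 9.53 in WT replicates 1 to 3. In each of the 3 genes, as in Hpgds, miR-27 Tg replicate 2 was the highest of its group and WT replicate 1 or 3 the lowest of its own. With 6 libraries such values are common: 155 of the 11643 genes compared had an r over 0.95, and the group difference is part of it.

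The cyclooxygenases were close to the lower limit of the data. Ptgs1 (COX-1), the constitutive form, had 1.75, 3.46 and 2.34 RPKM in miR-27 Tg and 1.33, 1.16 and 1.77 in WT, from 13 to 34 reads a library. Its lowest miR-27 Tg value lay just under the highest WT value, and the log2 fold change of 0.52 did not pass (SE 0.27, adjusted p = 0.493 by limma). Ptgs2 (COX-2), the inducible form, had 1.36, 2.02 and 1.44 RPKM in miR-27 Tg and 1.5, 1.03 and 2.39 in WT, from 18 to 40 reads. At 18 reads counting alone gives an error of 23.6%. The groups overlapped for Ptgs2, and the interval of its log2 fold change, -0.65 to 0.66, leaves room for differences of either sign.

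Hpgd (15-PGDH) oxidises prostaglandin E2 to an inactive form. Hpgd had 2.0, 4.92 and 4.75 RPKM in miR-27 Tg and 2.64, 1.78 and 1.4 in WT, from 13, 29 and 28 reads and 19, 12 and 9 reads. In miR-27 Tg replicates 2 and 3 the level was above every WT library and in replicate 1 it lay among them, and the log2 fold change of 0.69 did not pass (SE 0.33, adjusted p = 0.437 by limma). The ratio of Hpgds to Hpgd was 3.32, 2.56 and 1.52 in miR-27 Tg replicates 1 to 3 and 8.21, 14.8 and 16.1 in WT replicates 1 to 3. The groups did not overlap in this ratio, as they did not for Hpgds alone, so it is no separate result.

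Alox5ap presents arachidonic acid to 5-lipoxygenase (Alox5) at the start of leukotriene synthesis and is strongly expressed in myeloid cells. Alox5ap (NM_009663, chromosome 5, 149265004 to 149288153, plus strand) had 15.4, 87.1 and 49.6 RPKM in miR-27 Tg replicates 1 to 3 and 7.32, 19.9 and 35.8 in WT replicates 1 to 3. Its highest library exceeded its lowest 11.9-fold, the widest span of the 10 members, and the groups overlapped. The log2 fold change of 1.17 did not pass (SE 0.68, 95% interval -0.40 to 2.74, adjusted p = 0.554 by limma).

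The libraries with most Alox5ap were those with the highest sums of myeloid markers. miR-27 Tg replicates 2 and 3 and WT replicate 3 held the top 3 places in both, in the same order. Tyrobp, an adaptor of myeloid receptors, had 51.7, 415 and 250 RPKM in miR-27 Tg and 32.3, 86.4 and 167 in WT, the same order of libraries as Alox5ap within each group. Alox5, the partner enzyme, averaged 0.390 RPKM in miR-27 Tg and 0.292 in WT. Within miR-27 Tg the libraries had the order of Alox5ap for Hpgds too. Within WT they did not, and replicate 2 had the most Hpgds and the lowest myeloid sum. Between the groups Hpgds was lower in miR-27 Tg replicate 1, at a myeloid sum of 568 RPKM, than in WT replicates 1 and 3, at sums of 502 and 825. The part of myeloid or endothelial RNA in the Alox5ap values was not tested, nor was its part in the Hpgds and Ptger4 differences. The antisense gene Gm19719 shares 18.6% of the exonic bases of Alox5ap.

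**Figure D3:**
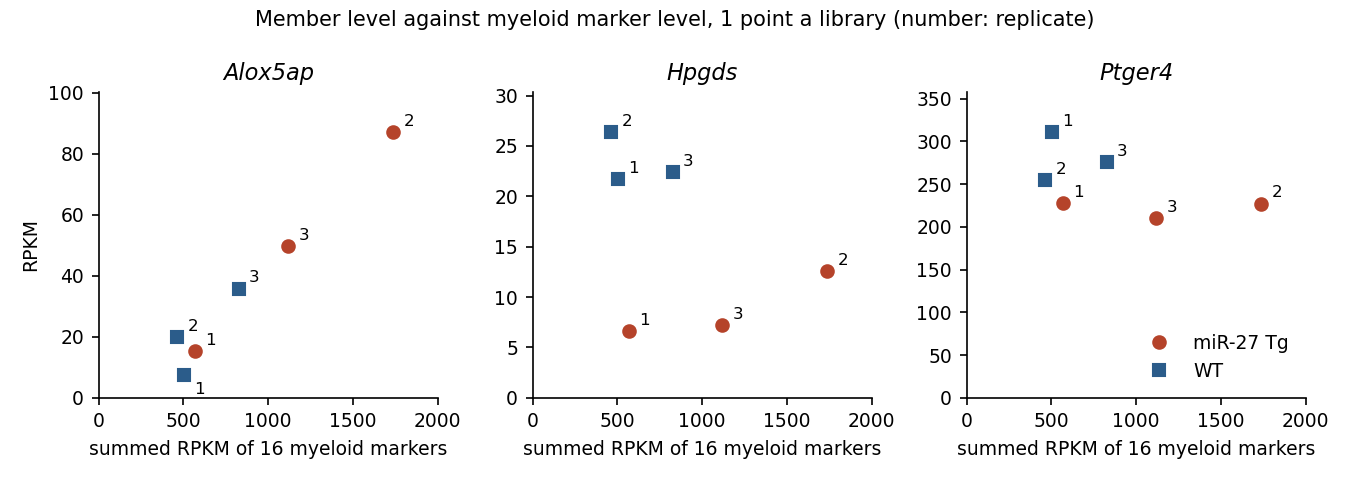
RPKM of Alox5ap, Hpgds and Ptger4 against the summed RPKM of 16 myeloid markers, 1 point a library, with circles for miR-27 Tg and squares for WT. Alox5ap is highest in the 3 libraries with sums of 825 RPKM and above, while Hpgds and Ptger4 are lower in each miR-27 Tg library, with sums of 568 to 1736 RPKM, than in each WT library, with sums of 463 to 825.

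Among the receptors, EP4 and EP2, the pair coupled to Gs, carried most of the reads that could be assigned. Ptger4 (NM_008965, chromosome 15, 5233399 to 5244187, minus strand, 3 exons) had 228, 227 and 210 RPKM in miR-27 Tg and 311, 255 and 276 in WT, from 2355 to 4265 reads. All 3 miR-27 Tg libraries lay below all 3 WT libraries. It averaged 222 ± 10.2 RPKM in miR-27 Tg and 281 ± 28.3 in WT, and the log2 fold change of -0.34 did not pass (SE 0.10, 95% interval -0.56 to -0.11, adjusted p = 0.19 by limma). A second annotated Ptger4 transcript, NM_001136079, gave nearly the same values, 227, 225 and 210 RPKM in miR-27 Tg and 309, 252 and 275 in WT, since the rows share most exons.

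Ptger2 (NM_008964, chromosome 14, 44988111 to 45003820, plus strand, 2 exons) had 62.3, 82.0 and 77.0 RPKM in miR-27 Tg and 90.9, 126 and 93.2 in WT. Here too the groups did not overlap, with 893 to 1063 reads in miR-27 Tg and 1322 to 1873 in WT. The log2 fold change of -0.48 did not pass (SE 0.16, 95% interval -0.85 to -0.11, adjusted p = 0.25 by limma). Antisense annotation covers 6.68% of its exonic bases.

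The sum of Ptger2 and Ptger4 was 290, 309 and 287 RPKM in miR-27 Tg and 402, 382 and 369 in WT, or 295 ± 11.8 and 384 ± 16.5 (SD, n = 3 each). It is no separate result, since the groups did not overlap for either gene alone. Spread within a group was smaller for the sum than for either gene in WT, where replicate 1 was highest for Ptger4 and lowest for Ptger2. The ratio of Ptger4 to Ptger2 overlapped between the groups, at 2.73 to 3.66 in miR-27 Tg and 2.02 to 3.42 in WT.

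EP3 pointed the other way. Ptger3 (NM_011196, chromosome 3, 157566892 to 157644758, plus strand) had 10.6, 10.1 and 7.93 RPKM in miR-27 Tg and 3.07, 4.80 and 7.51 in WT, from 55 to 81 reads in miR-27 Tg and 26 to 57 in WT. Every miR-27 Tg library was above every WT library, by a small margin between miR-27 Tg replicate 3 and WT replicate 3. The log2 fold change of 0.84 did not pass (SE 0.28, 95% interval 0.18 to 1.49, adjusted p = 0.255 by limma), and no other annotated gene shares its exonic bases. The summed level of Ptger2 and Ptger4 was 27.5, 30.6 and 36.2 times that of Ptger3 in miR-27 Tg replicates 1 to 3 and 131, 79.5 and 49.2 times in WT replicates 1 to 3. The groups did not overlap for each of these genes alone, so this ratio is no separate result.

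The value listed for EP1 could not be read as EP1. Ptger1 (NM_013641) had 452, 379 and 350 RPKM in miR-27 Tg and 403, 292 and 432 in WT, with overlapping groups (log2 fold change 0.077, SE 0.16, adjusted p = 0.909 by limma). Its exonic bases are shared with other annotation, so how many of these reads belong to Ptger1 cannot be told from the table.

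The receptor for prostaglandin D2 on Th2 cells was low. Ptgdr2 (chromosome 19, 10937160 to 10942511, plus strand) had 3.68, 3.08 and 2.31 RPKM in miR-27 Tg and 3.69, 2.79 and 2.62 in WT, from 21 to 41 reads. The groups overlapped and their means were nearly equal, 3.02 and 3.03 RPKM, with a 95% interval of the log2 fold change from -0.56 to 0.54. On the opposite strand Ccdc86 shares 39.0% of its exonic bases, at 35.8 ± 6.26 RPKM in miR-27 Tg and 32.2 ± 4.22 in WT. Reads were counted on both strands, so how many of the reads listed for Ptgdr2 come from Ccdc86 cannot be told. The other receptor for this prostaglandin, Ptgdr, averaged 0.0277 RPKM in miR-27 Tg and 0.0267 in WT.

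The wider pathway was followed in 74 other genes of the table, of which 63 were tested. By limma 1 rose (Adcy6) and none fell, against 0.374% and 0.653% of all genes tested. At an unadjusted p under 0.05, 3 were higher and 5 lower, against 4.59% and 8.43% of all genes tested. The median log2 fold change of these 63 genes was 0.018, against -0.013 over all genes tested.

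Adcy6 is one of the adenylyl cyclases that make cyclic AMP when Gs-coupled receptors such as EP2 and EP4 are engaged. Adcy6 had 107, 103 and 98.2 RPKM in miR-27 Tg and 61.4, 48.8 and 69.3 in WT, and every miR-27 Tg library was above every WT library. It averaged 103 ± 4.57 RPKM in miR-27 Tg and 59.8 ± 10.3 in WT (log2 fold change 0.79, SE 0.14, adjusted p = 0.046 by limma), and adjusted p was 0.0653 to 0.14 in the 6 fits that left out 1 library. The Adcy6 call was also lost with no filter on low values (adjusted p = 0.0787 by limma), a mean RPKM of at least 0.25 (0.051), quantile normalization (0.0556), median-of-ratios scaling (0.054) and no intensity trend (0.0758), and it held under 6 of the 17 alternatives. Adcy7, the adenylyl cyclase with the highest level of the 4 on the list, had 508 ± 15.4 RPKM in miR-27 Tg and 551 ± 15.1 in WT (adjusted p = 0.606 by limma).

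None of the other 25 tested genes of cyclic AMP signalling passed. Gnas, which encodes the Gs alpha subunit, had 1527 ± 95.1 RPKM in miR-27 Tg and 1551 ± 136 in WT, and Gnai2, a Gi alpha subunit, had 1822 ± 140 and 1640 ± 209 in the same order. Prkar2a, a regulatory subunit of protein kinase A, had 17.9 ± 2.24 RPKM in miR-27 Tg and 26.2 ± 2.16 in WT, without overlap (log2 fold change -0.52, adjusted p = 0.172 by limma).

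Enzymes before and beside the members gave no call. Of the 13 phospholipases and other lipases on the list none passed. Abhd16a and Pla2g16 had the highest levels, 151 ± 14.2 and 101 ± 15.2 RPKM in miR-27 Tg and 138 ± 10.3 and 114 ± 14.9 in WT. The largest fold changes of that list were in Pla2g7 (0.94, adjusted p = 0.432 by limma) and Pla2g2d (0.74, adjusted p = 0.592), and Pla2g7 had 5.11, 11.8 and 15.9 RPKM in miR-27 Tg and 4.38, 2.67 and 8.38 in WT. Of the terminal synthases, Ptges3 and Ptges2 had 80.9 ± 10.1 and 37.4 ± 4.99 RPKM in miR-27 Tg and 81.8 ± 15.4 and 34.1 ± 8.64 in WT. Ptges, the inducible prostaglandin E synthase, had 1 read in 1 of the 6 libraries, and Ptgds, the other prostaglandin D synthase, had 1 read in each of 2. Tbxas1, thromboxane synthase, had 2.22 ± 0.827 RPKM in miR-27 Tg and 1.19 ± 0.699 in WT, and Fam213b, a prostamide synthase, had 12.8 ± 1.78 and 15.2 ± 1.08 in the same order.

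Transport and breakdown genes did not pass either. Cbr1, a carbonyl reductase that acts on prostaglandin E2, had 202 ± 20.8 RPKM in miR-27 Tg and 224 ± 8.72 in WT. Slco3a1, a prostaglandin transporter, had 82.1 ± 4.60 RPKM in miR-27 Tg and 67.8 ± 7.13 in WT without overlap (log2 fold change 0.27, adjusted p = 0.355 by limma), and Ptgr2, a prostaglandin reductase, had 62.7 ± 9.4 and 74.4 ± 7.55 in the same order.

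Receptors for other prostanoids had a median log2 fold change of 0.29 over 4 tested genes, none past the threshold. Ptgir, the prostacyclin receptor, which is coupled to Gs, had 27.3, 24.6 and 27.1 RPKM in miR-27 Tg and 15.1, 22.5 and 17.9 in WT. These groups did not overlap, in the direction opposite to that of EP2 and EP4 (log2 fold change 0.50, SE 0.17, adjusted p = 0.247 by limma). Tbxa2r, the thromboxane receptor, had 141 ± 16.9 RPKM in miR-27 Tg and 114 ± 25.9 in WT, and Ppard, a nuclear receptor, had 56.2 ± 10.5 and 46.4 ± 7.76. Pparg, a nuclear receptor for prostaglandin D2 derivatives, stayed low at 1.36 ± 0.932 RPKM in miR-27 Tg and 1.23 ± 0.599 in WT. 

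The leukotriene and lipoxygenase list around Alox5ap had a median log2 fold change of -0.20 over 9 tested genes, and none passed. Lta4h, which makes leukotriene B4 and trims peptides, had the highest level of the list, 790 ± 55.4 RPKM in miR-27 Tg and 716 ± 22.2 in WT, and Gpx4, a lipid peroxidase, had 63.5 ± 7.14 and 62.1 ± 10.8. Cysltr2, a receptor for cysteinyl leukotrienes, had 13.6, 21.6 and 22.6 RPKM in miR-27 Tg and 31.9, 39.1 and 31.3 in WT. All miR-27 Tg libraries lay below the WT libraries, and the log2 fold change was -0.82 (SE 0.21, adjusted p = 0.135 by limma). Alox8, a lipoxygenase, had 4.91 ± 1.41 RPKM in miR-27 Tg and 9.02 ± 1.18 in WT, again without overlap (log2 fold change -0.79, adjusted p = 0.204 by limma).

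**Figure D4:**
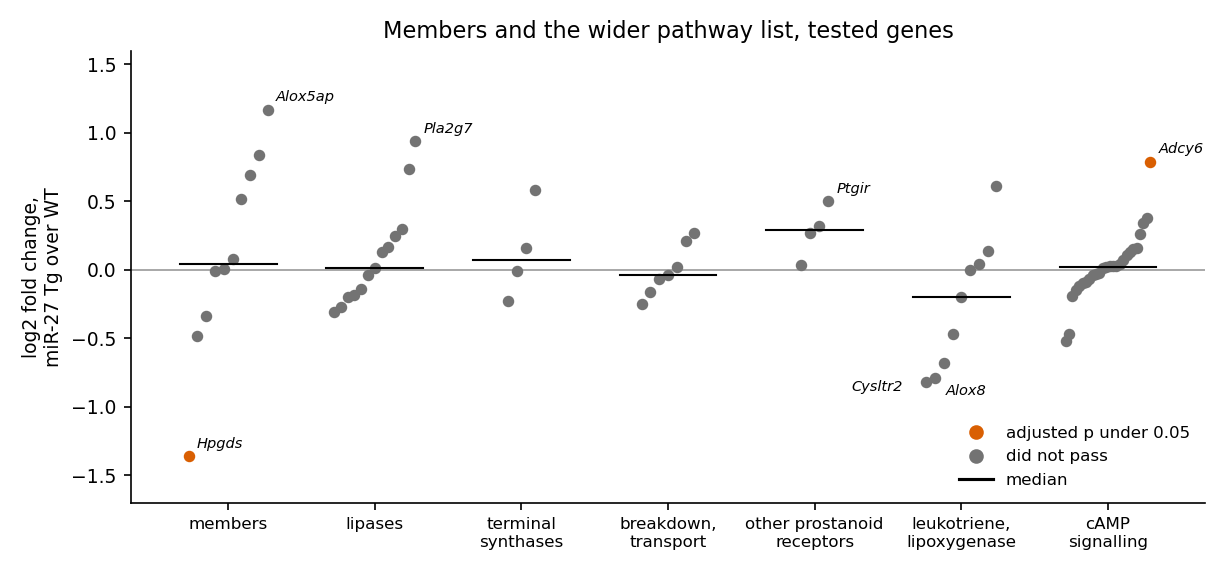
Log2 fold change, miR-27 Tg over WT, of the 10 members and of the 63 tested genes of the wider pathway in 6 lists; orange points passed an adjusted p under 0.05 by limma and black lines are medians. Hpgds among the members and Adcy6 among the cyclic AMP genes passed, at -1.36 and 0.79.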

How the data were processed

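The authors deposited 1 table of RPKM values for 6 libraries and 34711 RefSeq transcripts. Per the file headers, HOMER counted reads in exons of mm10 transcripts on both strands and scaled each library to 10000000 reads. STAR 2.2.0c, HOMER, mm10 and GRCm38 appear in the submitters' processing notes. RPKM here is therefore per kilobase and per 10000000 counted reads. Low values (transcripts between 200 and 4000 bases long) were whole multiples of 1 read, within 0.1 of a read, in 100% of cases, which gave depth and reads per gene.

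For each symbol the transcript row with the highest mean RPKM was kept. Genes averaging 1 RPKM or more were fitted as log2(RPKM + 1) with limma 3.58.1 (R 4.3.3, intensity trend, two-sided), miR-27 Tg over WT, without a replicate block. The threshold was a Benjamini-Hochberg adjusted p under 0.05 over all genes tested. Fold changes on this scale understate those of low genes. Exon sharing and 3′ UTRs came from GENCODE M21, with 1 transcript per gene for the seed search (the longest with a 3′ UTR).

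The members, pathway lists and markers were chosen with earlier results of these data known, so no list was tested as a set. Named were all members, pathway genes past the threshold and, per list, the 2 highest and the 2 with the largest fold change, the 3 genes most like the most changed member, and leading markers. Adcy7, Pparg, Ptgdr, Ptges, Ptgds, Alox5, Il4, Il5, Il13, Fcer1a, Ms4a2, Mcpt8, Mcpt4, Tpsb2, Prg2, Clec1b, Il1rl1, Ccr2, Cdh5, Kdr and Ccdc86 were added for their roles after their values were seen. Of 78 listed symbols Prxl2b, Ptgr3 and Grk2 appear under the older symbols Fam213b, Zadh2 and Adrbk1, and Oxer1 was not matched. Alternatives were other pseudocounts, filters, scalings, weights and transcripts, a replicate block, and each library left out. One item related to exon sharing is not reported here.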

Additional observations from a re-analysis of the deposited data

How the results depend on the processing

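The log2 fold changes of Hpgds, Ptger2, Ptger4, Ptger3, Ptgs1, Hpgd, Alox5ap and Adcy6 kept their direction under all 17 alternatives, and Hpgds ranged from -1.62 to -1.07. The number of members past the threshold was 1 under 8 alternatives and 0 with no filter on low values (Hpgds adjusted p = 0.10 by limma), a mean RPKM of at least 0.25 (0.0536), no intensity trend (0.0644) and array weights (0.0619), and it ranged from 0 to 1 with 1 library left out. In these fits with 0 members past the threshold, 3 to 5 members had an unadjusted p under 0.05. Over all genes tested that count was 2107 of 18024 with no filter, 1941 of 13621 with array weights and 1428 of 13584 without WT replicate 2. The 140 genes past the threshold numbered 47 with no filter, 276 with the replicate block, 225 with array weights and 5 to 65 with 1 library left out. With the replicate block Hpgds had adjusted p = 0.0228 and Ptger2 0.0866. The labels do not say whether same-numbered libraries share more than a number. Correlations of their deviations from group means were 0.368, 0.0971 and 0.0368 for replicates 1 to 3. With WT replicates 2 and 3, miR-27 Tg replicate 1 correlated at -0.222 and -0.143, so replicate 1 matched its own number best. Replicates 2 and 3 did not correlate best with their own number.

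Genes with fold changes near 0 changed sign. Ptgs2 was at -0.0032 with a pseudocount of 5, -0.062 with array weights and -0.17 to 0.20 with 1 library left out, and Ptger1 at -0.038 with array weights and -0.094 to 0.19 with 1 library left out. Ptgdr2 was at 0.043 with quantile normalization, 0.017 with median-of-ratios scaling, 0.028 with array weights and -0.12 to 0.13 with 1 library left out. Ptges3 was at 0.015 and 0.024 with these 2 scalings and Gnas at 0.012 with the second. With 1 library left out Ptges3, Ptges2, Gpx4 and Gnas ranged from -0.085 to 0.14, -0.053 to 0.31, -0.067 to 0.17 and -0.095 to 0.030. The cause of these changes was not tested. Depth limits Ptgs1, Ptgs2, Hpgd and Ptgdr2, with 9 to 41 reads a library.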
